A study of Macaca mulatta with 21 samples.

Results

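RiPS3, a rhesus macaque line of induced pluripotent stem cells, was compared with ORMES23, a rhesus embryonic stem cell line, on 3 microarrays each. ORMES23 is a male line derived from the blastocyst of an embryo fertilised in vitro. RiPS3 is a female line made from the skin fibroblasts of an 8 year old adult by retroviral transduction of OCT4, SOX2, KLF4 and cMYC. The members of the comparison are the probe sets (groups of short probes that read 1 transcript) with 1 gene symbol that read a log2 level of 5 or more on at least 3 of the 6 arrays. Of 52865 probe sets on the array, 24969 carried 1 symbol, 361 several and 27535 none; 16886 members, which name 10437 genes, were compared. The other 8083 probe sets with 1 symbol did not reach the level.

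The study placed 7 rhesus lines on 21 arrays, 3 for each line, labelled as biological replicates A, B and C. The other lines were CRES-1 (male) and CRES-3 (female), both embryonic stem cell lines from cloned embryos (somatic cell nuclear transfer); RiPS1 (male, induced from fetal skin fibroblasts), RiPS2 (female, induced from skin fibroblasts of a 10 year old) and the skin fibroblasts of an 8 year old female. Every line was grown on inactivated mouse embryonic fibroblast feeders, and stem cell RNA came from colonies of undifferentiated morphology picked by hand. Each line is a single derivation, so the 3 arrays measure the spread within a line and not between lines of a kind. RiPS3 and ORMES23 differ in sex, in donor and in how they were made; these cannot be told apart in their comparison. According to the design text a single monkey gave the fibroblasts for the cloned and induced lines, while the labels give both sexes and several ages; donors were not assigned to lines here.

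Embryonic stem cells are taken from the inner cell mass of a blastocyst, and induced cells reach a similar state from a somatic cell after a set of transcription factors is supplied. In both, POU5F1 (OCT4), SOX2 and NANOG form the core of a self-sustaining network that keeps the cells undifferentiated. Places where induced and embryo-derived lines are known to vary include imprinted genes (read from 1 parental copy), the inactive X of female cells, and genes left over from the somatic cell of origin.

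The 6 arrays did not fall cleanly into their lines. Over the 16886 members, the RiPS3 A array correlated with ORMES23 B at r = 0.986 and with ORMES23 C at 0.982, above its correlations with RiPS3 B (0.981) and RiPS3 C (0.975). ORMES23 A correlated with ORMES23 B at 0.965 and with ORMES23 C at 0.962, while ORMES23 B and C correlated at 0.995. RiPS3 A thus lay near the other line and ORMES23 A lay apart from its own, so results are also given without both A arrays, an alternative chosen after these correlations were seen. Endoderm markers averaged 9.14 on ORMES23 A, 7.64 on B and 7.05 on C, against 6.88 to 8.10 on the RiPS3 arrays (mean log2 over 6 markers); its part in the results was not tested. Markers of pluripotent cells averaged 10.16 to 10.41 in ORMES23 and 10.37 to 10.49 in RiPS3, with 7 of 8 at log2 5 or more in ORMES23 (CDH1 under 5) and 8 of 8 in RiPS3. Of 10 fibroblast markers, FAP, LUM, PRRX1 and TWIST2 were under log2 5 in both lines and the other 6 were at 5 or more; TWIST2 was under 5 in the fibroblasts too. The list averaged 6.40 to 6.65 in ORMES23 and 6.22 to 6.51 in RiPS3, against 9.43 to 9.46 in the fibroblasts. Mesoderm markers averaged 6.25 to 6.63 in ORMES23 and 5.65 to 6.85 in RiPS3, neural markers 4.04 to 5.68 and 4.05 to 4.70, and trophoblast markers 4.92 to 5.20 and 4.75 to 5.18. Both lines thus carried the pluripotent markers of their labels. In pooled RNA a smaller share of cells of a type cannot be told from less RNA per cell.

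Few members were called different between the induced and the embryo-derived line. The median difference, RiPS3 minus ORMES23, was 0.00016 on the log2 scale over all members. A member was called where limma's test, fitted over all 21 arrays with a mean for each line, gave a Benjamini-Hochberg adjusted p under 0.05 over the 16886 members and the lines differed by log2 1 (a fold of 2) or more. By this rule 126 probe sets (0.746%) were called. Of these, 70 (0.415%) were higher in RiPS3, naming 62 genes, and 56 (0.332%) were lower, naming 53 genes. Together they named 114 of the 10437 genes. The called rises had a median of 1.34 and the called falls a median of -1.36; 13 rises and 13 falls reached log2 2. The 3 arrays of 1 line lay wholly above those of the other for 122 of the 126, and for 19.2% of all members. In 35 called probe sets the dimmer line averaged under log2 5, where array signal flattens, so a fold for these is a lower bound counted from 5.

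The count of calls moved with single arrays. It was 172 without ORMES23 A, 75 without ORMES23 B, 67 without ORMES23 C, 270 without RiPS3 A, 52 without RiPS3 B and 55 without RiPS3 C, and 382 without both A arrays, of which 109 were among the 126. Calls made with each of the 6 arrays left out in turn numbered 40 of the 126. With the 6 arrays of the compared lines fitted alone, 37 probe sets were called, and 23 of the 39 named calls were lost at unchanged differences, with adjusted p between 0.0548 and 0.199. The 23 were FAM111A, FGFBP3, FST, GCA, HMCN1, KLHL14, LGALS1, LOC707924, LOC712157, MEIOB, MEST, PEX7, PNPLA4, PTPRB, RAB25, SCIN, SH3YL1, SLC38A4, SOSTDC1, ST6GAL2, TBL1X, TCEAL2 and TESMIN. In the plot of difference against level, the called probe sets spread over the range of levels, with RERE and MAMU-A far below the others and MAMU-AG above.

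**Figure D1:**
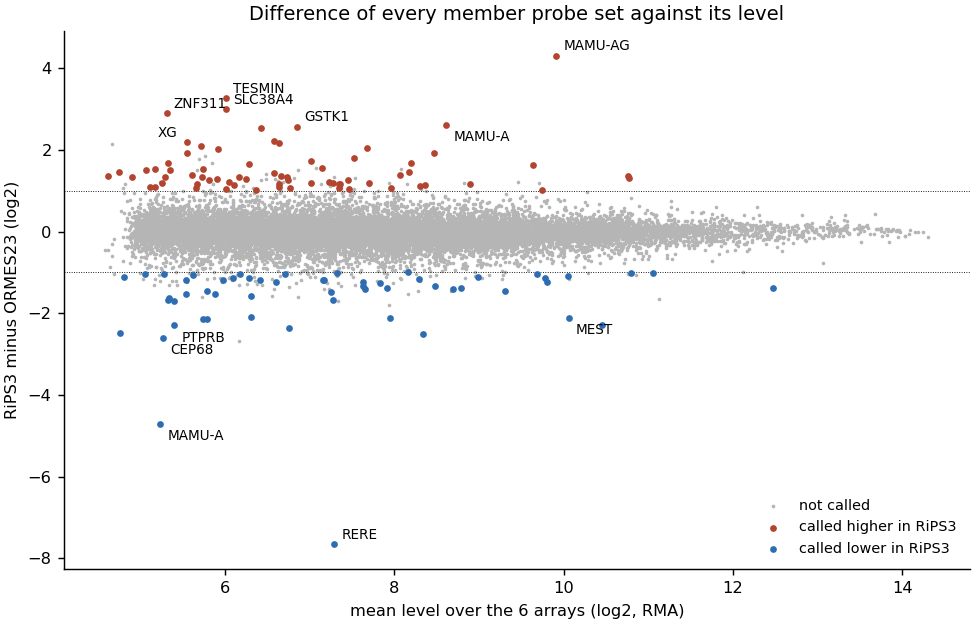
Difference between RiPS3 and ORMES23 (log2, y axis) against the mean level over the 6 arrays (log2, x axis) for each of the 16886 member probe sets; red points are the 70 called higher in RiPS3, blue points the 56 called lower, and dotted lines mark a difference of log2 1. The mass of members lies around 0, and RERE stands apart at -7.65.

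The largest rise and the second largest fall were in genes of the major histocompatibility complex (MHC) class I, whose proteins present peptides to T cells. MAMU-AG, a nonclassical class I gene known from the rhesus placenta, read 11.85, 12.34 and 11.99 on the RiPS3 arrays A, B and C, and 7.91, 7.83 and 7.53 on those of ORMES23. All RiPS3 arrays were far above all ORMES23 arrays, a 19.7-fold difference (log2 4.30, SE 0.21; limma, adjusted p = 7.02e-10). The other MAMU-AG probe set averaged 6.87 in RiPS3 and 6.51 in ORMES23 and was not called (difference 0.37, adjusted p = 0.654). MAMU-A, a classical class I gene, was read by 2 probe sets that moved in opposite directions. The first read 2.92, 2.71 and 3.01 in RiPS3 and 8.10, 7.56 and 7.11 in ORMES23, a level at least 6.02-fold lower in RiPS3 (log2 -4.71, SE 0.26; adjusted p = 4.45e-09). The other averaged 9.92 in RiPS3 and 7.31 in ORMES23 (log2 2.61, SE 0.15; adjusted p = 9.59e-09). Macaque class I genes are many, near-identical and highly variable between animals, so a probe set can read several genes or miss an allele; which of these applies was not tested. Of the 23 genes measured on the list of MHC and antigen processing genes, these were the 2 with a call. Its 39 probe sets had a median difference of 0.20, with 28 positive and 11 negative. B2M, the common light chain of class I, read 12.8 in RiPS3 and 12.9 in ORMES23 (difference -0.10, adjusted p = 0.701), and TAP1, the peptide transporter, had a difference of 0.41 (adjusted p = 0.358).

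Neither the pluripotency network nor the reprogramming factors differed between the lines by the call rule. Of 16 pluripotency genes measured in 21 probe sets, 0 were called, with a median of -0.06. In limma's test 2 of these probe sets had an unadjusted p under 0.05, those of LIN28B and ZSCAN10, with differences of -0.35 and -0.39 (adjusted p = 0.199 and 0.343). Over all members 2415 of 16886 had one. POU5F1, the core factor, read 12.16, 11.98 and 12.29 in RiPS3 and 11.41, 12.21 and 12.19 in ORMES23 (difference 0.20, SE 0.26, adjusted p = 0.797). The ORMES23 A array was the low one and the others overlapped. SOX2 read 9.58, 9.80 and 10.11 in RiPS3 and 8.62, 9.57 and 9.89 in ORMES23, again with ORMES23 A lowest (difference 0.47, SE 0.29, adjusted p = 0.496). KLF4 read 9.08, 7.96 and 7.74 in RiPS3, where array A was high, against 7.69, 7.51 and 7.51 (difference 0.69, SE 0.36, adjusted p = 0.403).

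MYC, the fourth of the transduced factors, read 10.57, 10.01 and 9.76 in RiPS3 and 9.67, 10.19 and 10.33 in ORMES23 (difference 0.05, SE 0.24). The differences of POU5F1 and MYC changed sign without ORMES23 A, to -0.06 and -0.14. All 7 probe sets of the 4 factors had a positive difference, with a median of 0.37, 0 called and 0 at an unadjusted p under 0.05 by limma; the probe sets do not tell the cell's own transcript from that of a viral copy. DNMT3B, the de novo DNA methyltransferase of early embryos, read 12.29, 12.06 and 12.26 against 12.27, 12.29 and 12.23 (difference -0.06, adjusted p = 0.930). NANOG had a difference of -0.42 (SE 0.26, adjusted p = 0.495), but its 1 probe set averaged 9.96 in the skin fibroblasts, above the 8.81 of RiPS3 and 9.22 of ORMES23, so it does not mark pluripotency on this array. LIN28A and XIST were not among the members and were not analysed here. On the list of genes of the naive and primed states, 0 of 14 were called by limma. Of its 25 probe sets 19 were negative, with a median of -0.32. An unadjusted p under 0.05 by limma was reached by 4 of the 25 and by 2415 of all 16886 members.

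Imprinted genes gave a call in each direction among the paternally expressed ones. SLC38A4, an amino acid transporter, read 8.21, 7.30 and 7.02 in RiPS3 and 3.19, 6.35 and 4.01 in ORMES23. Its levels in RiPS3 lay above those of every other line, and the rise was at least 5.69-fold over ORMES23 (log2 2.99, SE 0.53; limma, adjusted p = 0.00687, or 0.189 with the 6 arrays alone). ORMES23 B was the high array of its line. The other SLC38A4 probe set averaged 6.48 in RiPS3 and 6.44 in ORMES23 (difference 0.04). MEST, a paternally expressed hydrolase family gene of the embryo, read 9.68, 9.04 and 8.30 in RiPS3 against 11.15, 11.08 and 11.11 in ORMES23. The tight ORMES23 arrays lay above all of RiPS3, 4.30-fold on average (log2 -2.10, SE 0.46; adjusted p = 0.0244).

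MEST kept its direction without each array in turn (log2 -2.44 to -1.75) but its call was lost without ORMES23 A, B or C or RiPS3 B or C, with an adjusted p of up to 0.175. MEST was also low in RiPS2, at 8.48, and lowest in fibroblasts, at 4.78, while CRES-1, CRES-3 and RiPS1 averaged 11.13, 10.52 and 10.33. The other 11 of 13 paternally expressed genes measured were not called, among them SNRPN (difference -0.09), NDN (0.12), IGF2 (0.16), PEG3 (-0.80) and PLAGL1 (-0.90). Over the 19 probe sets the median was -0.09, with 5 positive and 14 negative. An unadjusted p under 0.05 by limma was reached by 6 of the 19 and by 2415 of all 16886 members. Of 16 maternally expressed genes 0 were called by limma, with a median of 0.02 over 34 probe sets and an unadjusted p under 0.05 in 3. The smallest p was that of SLC22A18, a membrane transporter, at 7.07, 7.11 and 7.37 in RiPS3 against 6.35, 6.50 and 6.49 in ORMES23 (difference 0.74, adjusted p = 0.0472, under the fold threshold). H19, the maternally expressed long RNA, had a difference of -0.12.

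The study asked about X inactivation. The 2 lines differ in labelled sex, and with all arrays in the fit X-linked members were called about as often as autosomal ones. Of 637 X-linked probe sets, 4 were higher and 1 lower in RiPS3 (0.785%), against 0.745% of 16235 autosomal ones. The median difference was -0.02 on X and 0.00088 on autosomes. The median level of X over that of the autosomes was 0.09 to 0.17 (log2) on the ORMES23 arrays and 0.12 to 0.20 on those of RiPS3, so the lines overlapped. It was 0.32 to 0.42 in RiPS1 and -0.28 to -0.22 in the fibroblasts. With all arrays 5 of the 126 calls were X-linked, as are 637 of the 16886 members. The X-linked count was 14 of 172 calls without ORMES23 A, 5 of 75 without ORMES23 B and 4 of 67 without ORMES23 C. It was 12 of 270 without RiPS3 A, 3 of 52 without RiPS3 B and 2 of 55 without RiPS3 C. Without both A arrays it was 24 of 382. The X-linked share of the calls thus moved with the arrays used and was largest without ORMES23 A.

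XG, the blood group antigen gene at the edge of the pseudoautosomal region in humans, read 6.75, 6.71 and 6.46 in RiPS3 and 4.66, 4.56 and 4.13 in ORMES23, at least 3.12-fold higher (log2 2.19, SE 0.21; limma, adjusted p = 8.66e-06). XG was also high in RiPS1, a male line, at 7.02. PNPLA4, a lipase family gene reported to escape inactivation in humans, read 6.80, 6.86 and 7.09 against a wide 5.02, 5.98 and 3.73 (log2 2.01, SE 0.36; adjusted p = 0.00783). Its call was lost without RiPS3 C (adjusted p = 0.0512). XG and PNPLA4 were the 2 called of 26 measured genes on the list of genes reported to escape, whose 58 probe sets had a median of 0.17, with 38 positive; an unadjusted p under 0.05 was reached by 23 of the 58 and by 2415 of all 16886 members. DDX3X (0.58), KDM5C (0.30) and EIF2S3 (0.27), further escape genes, were not called.

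SYTL5, a synaptotagmin-like gene, rose on 1 of 4 probe sets, to 8.32, 8.91 and 8.88 from 6.32, 7.03 and 6.59 (log2 2.05, adjusted p = 0.00531); the other 3 differed by 0.07 to 0.24. TCEAL2, of the elongation factor A-like family, read 7.47, 8.27 and 8.03 against 6.92, 6.39 and 5.77 (log2 1.57, adjusted p = 0.00868). TBL1X, a corepressor subunit, fell on 1 of 5 probe sets, to 7.47, 7.26 and 6.87 from 8.87, 8.29 and 8.23 (log2 -1.26, adjusted p = 0.0117). The other 4 TBL1X probe sets differed by -0.11 to 0.34. The TCEAL2 call was lost without ORMES23 C, RiPS3 B or RiPS3 C (adjusted p up to 0.0590) and the TBL1X call without RiPS3 B or C (up to 0.0884).

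A probe set annotated to RERE, an autosomal corepressor gene, gave the largest difference of all members. It read 4.05, 3.35 and 3.00 in RiPS3 and 11.61, 10.97 and 10.77 in ORMES23, at least 69.5-fold lower in RiPS3 (log2 -7.65, SE 0.26; limma, adjusted p = 4.14e-12). In every line it followed the labelled sex: the 9 arrays of ORMES23, CRES-1 and RiPS1 read 10.02 to 11.61, and the 12 arrays of CRES-3, RiPS2, RiPS3 and fibroblasts read 3.00 to 4.05. The other 3 RERE probe sets differed by -0.43 to 0.02 and were not called, so the difference is that of a probe set and not shown for the gene. This split sets RiPS3 against ORMES23, the difference by which the 126 were chosen, so counts among the 126 are a description. Of the 126 called members, 9 separated the 12 arrays labelled female from the 9 labelled male without overlap. Of all members 25 did so (11 higher and 14 lower in the female lines). Among the 9 were LOC712157, MAMU-AG and a probe set of MAMU-A, PON3 and 2 probe sets of RDH10, all higher in the female lines, and KAT6A, RERE and TBL1X, lower. The 3 members placed on the Y chromosome by the annotation were not called by limma, and 0 of them had an unadjusted p under 0.05: SRY, the testis-determining gene, differed by 0.19, LOC722886 by 0.33 and LOC709587 by -0.03. SRY read 5.50 to 5.87 in the female RiPS3, no lower than the 5.34 to 5.64 of the male ORMES23.

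Outside these groups, the leading rises included genes of several functions. TESMIN, a testis-expressed metallothionein-like gene, read 6.17, 8.55 and 8.19 in RiPS3 and 4.24, 4.61 and 4.28 in ORMES23, at least 6.23-fold higher (log2 3.26, SE 0.51; limma, adjusted p = 0.00249, or 0.0927 with the 6 arrays alone). RiPS3 A was the low array of its line. ZNF311, a zinc finger gene on chromosome 4, read 6.47, 7.15 and 6.65 against 4.22, 3.61 and 3.76 (log2 2.89, SE 0.29, adjusted p = 1.61e-05). GSTK1, a mitochondrial and peroxisomal glutathione transferase, read 7.99, 8.23 and 8.19 against 6.20, 5.28 and 5.22, a 5.93-fold rise (SE 0.21 on log2 2.57, adjusted p = 1.02e-06). GSTK1 was highest in fibroblasts, at 9.68, and among the stem cell lines RiPS3 was above all.

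LOC712157, an uncharacterised locus, read 8.14, 7.55 and 7.39 against 6.32, 4.49 and 4.68 (5.79-fold, adjusted p = 0.00117, or 0.111 with the 6 arrays alone). TTLL6, a tubulin polyglutamylase, rose on all 3 of its probe sets, with the largest at 7.13, 8.05 and 7.87 against 5.57, 5.33 and 5.49 (4.65-fold, adjusted p = 0.00215) and the others at log2 2.16 and 1.34. PEX7, the receptor that imports PTS2 proteins into peroxisomes, rose on both of its probe sets, by log2 1.72 (adjusted p = 0.000684, or 0.113 with the 6 arrays alone) and 1.38, reading 7.67, 8.02 and 7.96 against 6.97, 5.83 and 5.68 on the first. On GSTK1, LOC712157 and PEX7 it was ORMES23 A that lay nearest to RiPS3.

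SCIN (scinderin, an actin-severing protein) read 5.94, 6.37 and 6.18 against 3.71, 5.11 and 4.64 (log2 1.68, adjusted p = 0.0117), with 0.80 on its other probe set. GCA (grancalcin, a calcium-binding protein) read 9.49, 9.51 and 9.26 against 8.60, 7.15 and 6.76, a 3.78-fold rise (adjusted p = 0.00903). SH3YL1, a phosphoinositide-binding protein, read 8.09, 8.77 and 8.40 against 7.11, 6.50 and 6.28, a 3.46-fold rise (adjusted p = 0.0108). CDK2, the S-phase kinase, was the 1 called gene of 24 on the cell cycle list, with 7.70 to 8.18 against a narrow 6.76 to 6.81 (2.24-fold, adjusted p = 0.000198); its other, brighter probe set differed by 0.05. MEIOB, a meiotic recombination gene, was the 1 called of 6 germline genes measured, reading 5.36, 6.17 and 5.93 against 4.46, 4.23 and 4.28 (at least 1.76-fold higher, adjusted p = 0.0108). Leaving out RiPS3 B ended the calls of SCIN, GCA, SH3YL1 and MEIOB, RiPS3 C those of SCIN, SH3YL1 and MEIOB, and ORMES23 B or C those of GCA, SH3YL1 and MEIOB; the adjusted p then reached 0.0633, 0.0595, 0.0634 and 0.0677 for SCIN, GCA, SH3YL1 and MEIOB.

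**Figure D2:**
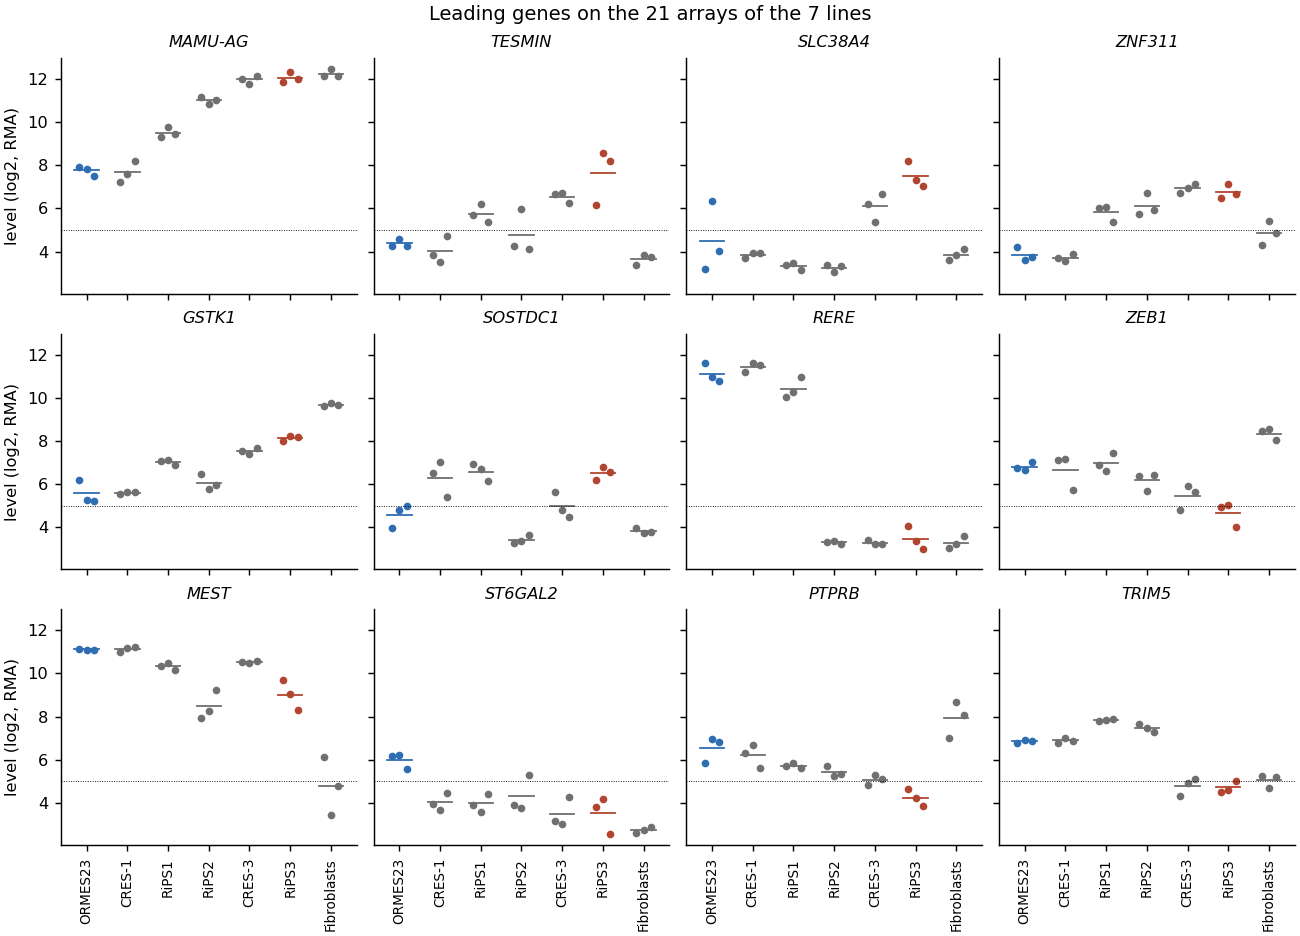
Level (log2, y axis) of 12 of the named genes on the 3 arrays of each of the 7 lines (x axis); points are arrays in the order A, B, C, bars are line means, red marks RiPS3, blue ORMES23, and the dotted line is log2 5. RERE follows the labelled sex of every line, while TRIM5 is low in CRES-3, RiPS3 and the fibroblasts.

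Of 30 epithelial genes measured, 2 were called higher in RiPS3, against 62 of all 10437 genes. A transcription factor known to repress epithelial genes was called lower. A link between this factor and the 2 genes was not tested. ZEB1, that repressor, read 4.94, 5.05 and 4.03 in RiPS3 and 6.76, 6.66 and 7.02 in ORMES23, at least 3.52-fold lower (log2 -2.14, SE 0.37; limma, adjusted p = 0.00614); its call was lost without RiPS3 C (adjusted p = 0.0512). CLDN7, a tight junction claudin, read 8.82, 8.64 and 8.80 in RiPS3 and 7.32, 7.44 and 7.38 in ORMES23, 2.59-fold higher (adjusted p = 0.00153). RAB25, an epithelial recycling GTPase, read 9.05, 9.10 and 8.96 against 6.80, 7.51 and 7.78, 3.20-fold higher (adjusted p = 0.0125). The RAB25 call was lost without RiPS3 B or C (adjusted p up to 0.0590) and without both A arrays (0.0507). CLDN7 and RAB25 were those 2. In CRES-3 they averaged 8.62 and 8.10 with ZEB1 at 5.46, and in CRES-1 6.85 and 6.49 with ZEB1 at 6.66. The 48 probe sets of the list had a median of 0.20, with 34 positive and 14 negative, against 0.00016 over all members. An unadjusted p under 0.05 by limma was reached by 12 of the 48 and by 2415 of all 16886 members. CLDN3 (0.80), CLDN4 (0.61), OVOL2 (0.67), EPCAM (0.41) and KRT19 (0.47) were positive without a call, and KRT8 (-0.06), JUP (0.05) and CLDN6 (-0.09) were near 0. The lowest difference of the list was -0.43.

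Of 31 fibroblast genes measured, LGALS1 (galectin 1) was the 1 called, while 114 of all 10437 genes were. It read 11.47, 11.73 and 11.13 in RiPS3 and 10.14, 9.80 and 10.29 in ORMES23, a 2.58-fold rise (log2 1.37, SE 0.19; limma, adjusted p = 0.000702, or 0.0572 with the 6 arrays alone), with log2 1.30 on its other probe set. In fibroblasts it read 14.01, and RiPS2, the other adult-derived induced line, read 10.02. The 66 fibroblast probe sets had a median of -0.15 with 43 negative, so the list did not lean toward RiPS3.

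Apart from RERE, MAMU-A, MEST and ZEB1, the leading falls were in genes of several functions. CEP68, a centrosome linker protein, read 4.10, 3.81 and 3.99 in RiPS3 and 6.21, 6.71 and 6.80 in ORMES23 (log2 -2.61, SE 0.18; limma, adjusted p = 1.15e-07), but its brighter probe set differed by 0.04. LOC695105 fell on both of its probe sets, with log2 differences of -2.51 and -2.11, reading 7.67, 7.05 and 6.53 against 9.95, 9.51 and 9.31 on the first (5.69-fold, adjusted p = 8.69e-05). ST6GAL2, a sialyltransferase, read 3.81, 4.21 and 2.54 against 6.17, 6.24 and 5.59 (log2 -2.48, adjusted p = 0.00672). The ORMES23 arrays stood above every array of the other pluripotent lines, and the call was lost without RiPS3 C (adjusted p = 0.0510). PTPRB, a receptor phosphatase of blood vessels, read 4.67, 4.25 and 3.84 against 5.87, 6.96 and 6.83 (log2 -2.30, adjusted p = 0.00236, or 0.0556 with the 6 arrays alone). Its other probe sets had differences of -1.02 and -0.99 without a call, and RiPS3 lay below every other line.

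TRIM5, the retrovirus restriction factor, read 4.52, 4.61 and 5.04 in RiPS3 and 6.79, 6.90 and 6.88 in ORMES23 (log2 -2.14, SE 0.19; limma, adjusted p = 4.47e-06). Its other probe sets differed by -1.16 and 0.87, so the probe sets of this gene disagree in direction. LOC714951 read 9.57, 9.27 and 9.08 against 11.10, 11.98 and 11.68 (4.85-fold lower, adjusted p = 4.47e-06), with 0.10 on its other probe set. TADA2B, a subunit of the SAGA acetyltransferase complex, read 4.46, 4.63 and 4.35 against 6.13, 6.19 and 6.18 (adjusted p = 0.000138), with -0.12 on its brighter probe set. LOC707924 read 4.84, 4.56 and 4.25 against 6.74, 5.88 and 6.13 (adjusted p = 0.00153, or 0.0572 with the 6 arrays alone). For these 4 the arrays of CRES-3 and of the fibroblasts lay with RiPS3 and the arrays of CRES-1, RiPS1 and RiPS2 with ORMES23, without overlap between the 9 and the 12 arrays. Of all 16886 members, 24 were higher and 21 lower in the 9 arrays in this way. Of the 126 called, 5 were higher and 6 lower. The 126 were chosen for a difference between RiPS3 and ORMES23, which this split also sets apart, so these counts are a description.

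KLHL14, a Kelch-like protein, read 6.25, 5.48 and 4.04 in RiPS3 and 7.95, 7.32 and 6.77 in ORMES23 (log2 -2.09, SE 0.51; limma, adjusted p = 0.0458), with -0.09 on its other probe set. FAM111A, a serine protease of DNA replication, read 7.15, 6.26 and 5.90 against 7.47, 8.24 and 8.59 (log2 -1.66, adjusted p = 0.0250). HMCN1, the matrix protein hemicentin 1, read 5.23, 4.50 and 3.86 against 5.83, 6.33 and 6.31 (log2 -1.62, adjusted p = 0.0203), with 0.30 on its brighter probe set. In all 3 the RiPS3 A array was the nearest to ORMES23, and without RiPS3 A their adjusted p fell to 0.0103, 0.00621 and 0.00464. Without ORMES23 B or C or RiPS3 B or C the 3 calls were lost, with an adjusted p of up to 0.295, 0.176 and 0.151; that of KLHL14 was also lost without ORMES23 A.

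On the lists of activin, nodal and TGF-beta genes and of FGF genes, the 1 called gene of each codes for a secreted binding protein. Over all members 114 of 10437 genes were called. FST (follistatin, which binds and blocks activin) read 8.74, 8.19 and 7.36 in RiPS3 and 9.0, 9.60 and 9.80 in ORMES23, 2.59-fold lower (log2 -1.37, SE 0.30; limma, adjusted p = 0.0227), with -1.06 and -1.02 on its other probe sets. It was the 1 called of 30 genes of the activin, nodal and TGF-beta list, whose 49 probe sets had a median of -0.17 with 37 negative. NODAL (0.21), SMAD2 (-0.17), ACVR2B (-0.07) and BMP4 (0.36) were not called. The lowest difference of that list was -1.66, a larger fall than that of FST, also without a call. FGFBP3, a carrier of FGFs in the matrix, read 6.04, 6.20 and 5.21 against 6.65, 7.33 and 7.06 (log2 -1.20, adjusted p = 0.0211), with 0.34 on its brighter probe set; it was the 1 called of 23 FGF genes (median -0.04 over 36 probe sets).

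The FST call was lost without ORMES23 B or C or RiPS3 B or C (adjusted p up to 0.154), and the FGFBP3 call without ORMES23 B or C or RiPS3 C (up to 0.150). SOSTDC1, an antagonist of BMP and WNT, read 6.17, 6.81 and 6.56 in RiPS3 and 3.96, 4.82 and 5.00 in ORMES23, at least 2.85-fold higher (log2 1.92, adjusted p = 0.0108); its call was lost without RiPS3 B or C (up to 0.0633). Of 34 WNT genes 0 were called by limma. Among their 54 probe sets 40 were negative, with a median of -0.26. An unadjusted p under 0.05 by limma was reached by 7 of the 54 and by 2415 of all 16886 members. FZD3, a WNT receptor, had the smallest p of the WNT list, at 6.67, 6.51 and 5.61 against 7.81, 7.0 and 7.09 (difference -1.03, adjusted p = 0.0843). It was called without RiPS3 A (0.0351). Other WNT genes with negative differences were WNT5A (-1.25), DKK3 (-1.03) and AXIN2 (-0.72), while DKK4 had 1.30.

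**Figure D3:**
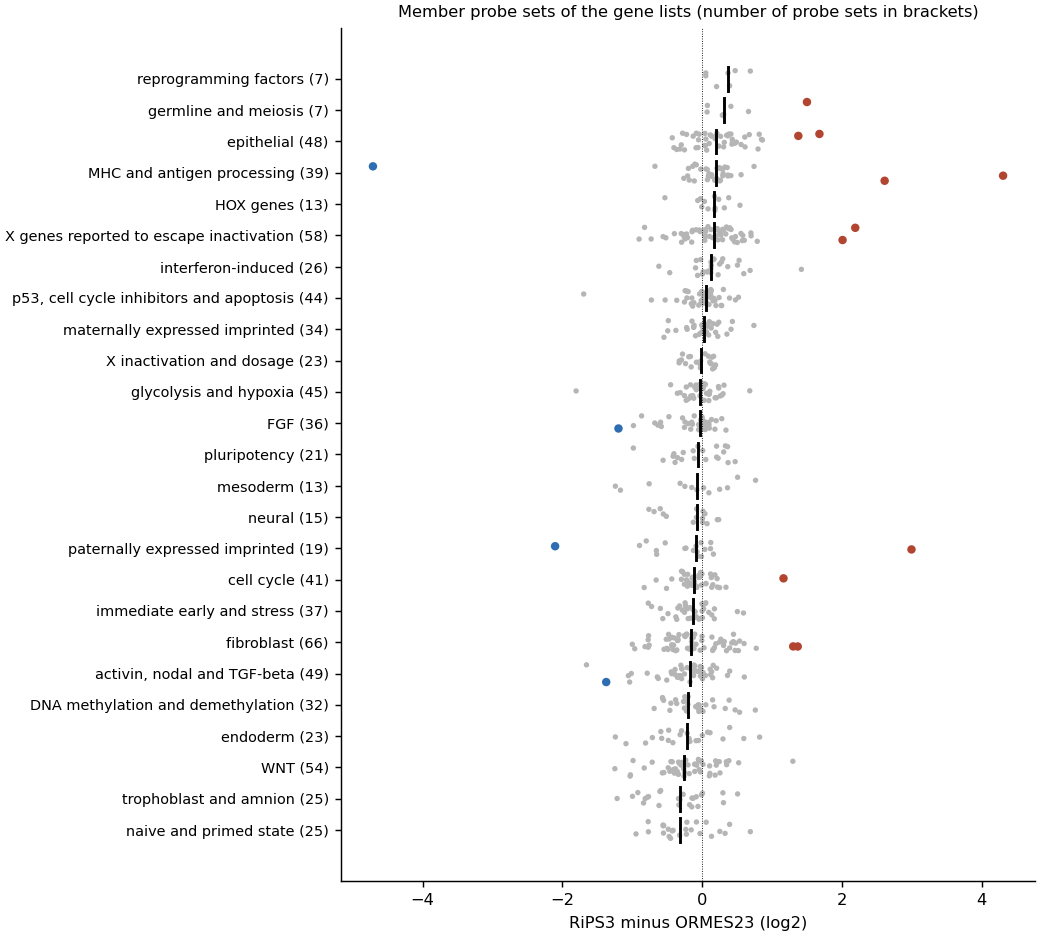
Difference between RiPS3 and ORMES23 (log2, x axis) for the member probe sets of each gene list with 5 or more of them (rows, ordered by median; number of probe sets in brackets); black ticks are medians, red points were called higher in RiPS3, blue points lower, and the dotted line is the median of all members. List medians lie between -0.32 and 0.37.

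The remaining lists held 0 called members by limma. Over all members 2415 of 16886 probe sets had an unadjusted p under 0.05. The number of such probe sets was 0 of 23 for X inactivation and dosage, 3 of 32 for DNA methylation and 5 of 26 for interferon-induced genes. It was 1 of 13 for HOX genes, 0 of 25 for trophoblast and amnion and 2 of 23 for endoderm. The list of X inactivation and dosage genes (10 measured) had a median of -0.02, with SPEN, a silencing cofactor, at the smallest p (difference -0.28, adjusted p = 0.355). The DNA methylation list (15 genes) had -0.20, and there DNMT1, the maintenance methyltransferase, read 6.23, 6.70 and 6.73 in RiPS3 and 5.66, 5.97 and 5.75 in ORMES23 (difference 0.76; limma, adjusted p = 0.0634). Interferon-induced genes (17 measured) had a median of 0.13, with 20 of 26 probe sets positive and 6 negative, and a range of -0.62 to 1.42. MX1, an antiviral GTPase, had the smallest p there and the lowest difference, -0.62 (limma, adjusted p = 0.102). HOX genes (12 measured) had 0.18, led by HOXB3 (0.32, adjusted p = 0.322). Trophoblast and amnion genes (17 measured) had -0.32 with 21 of 25 probe sets negative, and endoderm genes (13 measured) -0.22.

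In the last lists it was 1 of 13 for mesoderm, 1 of 15 for neural genes, 4 of 37 for immediate early and stress genes, 2 of 45 for glycolysis and hypoxia and 5 of 44 for p53, cell cycle inhibitors and apoptosis. Mesoderm genes (11 measured) had a median of -0.08, neural genes (8 measured) -0.08, immediate early and stress genes (21 measured) -0.13, glycolysis and hypoxia genes (22 measured) -0.03, and p53, cell cycle inhibitor and apoptosis genes (24 measured) 0.05. SERPINA1, a secreted protease inhibitor made by endoderm, differed by 0.82 (adjusted p = 0.0328), under the fold threshold, and MESP2, a mesoderm factor, by 0.76 (0.0911). SOX11, a neural and primed-state factor, differed by -0.77 (0.141), and HSPH1, a heat shock protein, by -0.60 (0.124). CDKN2A, the inhibitor p16, read 7.72, 6.70 and 5.06 against 7.92, 8.37 and 8.28 (difference -1.70, adjusted p = 0.112). ADM, the hypoxia-induced peptide adrenomedullin, read 8.38, 6.94 and 5.79 against 8.82, 8.75 and 8.95 (difference -1.80, adjusted p = 0.128). For both genes the RiPS3 arrays spread widely with A nearest to ORMES23, and both were called without RiPS3 A (adjusted p = 0.0132 and 0.0166). Without both A arrays GATA2, a trophoblast and blood factor, and SOX3, a neural factor, were also called, at -1.29 (0.0353) and -1.25 (0.0494), against -0.59 and -0.76 on the 6 arrays.

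The other lines placed the 126 called probe sets between ORMES23 and RiPS3 in different ways. The mean of CRES-3, the cloned female line, was nearer to RiPS3 than to ORMES23 for 106 of them (84.1%), and that of CRES-1, the cloned male line, for 18 (14.3%). RiPS1 was nearer to RiPS3 for 63, RiPS2 for 50 (39.7%) and the fibroblasts for 69 (54.8%). Over all members the mean absolute difference of RiPS3 was 0.178 from CRES-3 and 0.228 from ORMES23. Since the 126 were chosen as extremes between RiPS3 and ORMES23, these shares are a description. RiPS3 stood above every other array of the study for RAB25, SH3GL2, SLC38A4, SYTL5 and TMPRSS13 and below for PTPRB, 6 of the 126. Over all 16886 members it stood above for 32 and below for 29. ORMES23 stood apart from the 15 arrays of the other pluripotent lines for 15 of the 126, above them in 14 and below in 1 (MEIOB). Among all members ORMES23 stood above them in 90 and below in 41. The counts among the 126 are a description for the same reason.

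**Figure D4:**
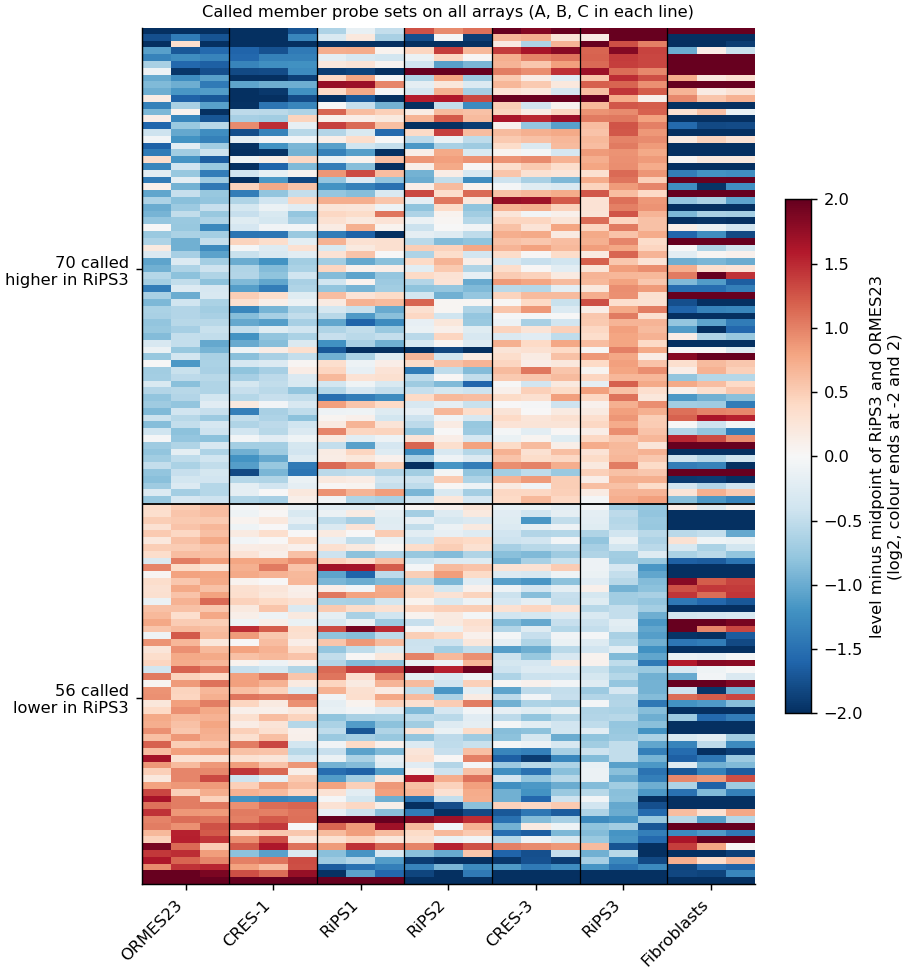
Level of the 126 called probe sets (rows, ordered by difference) on the 21 arrays (columns, A, B, C in each line), as log2 distance from the midpoint between RiPS3 and ORMES23; red is toward higher and blue toward lower levels. CRES-3 takes the side of RiPS3 for 106 of the 126 and CRES-1 for 18.

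A separate pair of lines, RiPS2 and CRES-1, also set a female line induced from adult fibroblasts against a male embryo-derived line, with no array shared. The pairs are not alike in origin, since CRES-1 came from a cloned embryo and ORMES23 from one fertilised in vitro. There, 133 members (0.788%) were called, 62 higher (0.367%) and 71 lower (0.42%) in RiPS2. Of the 70 probe sets higher in RiPS3, 15 were called higher there too (21.4% of the 70, 24.2% of the 62), 2 were called lower, and 53 had the same sign. Of the 56 lower, 11 were called lower there (19.6% of the 56, 15.5% of the 71), 1 was called higher, and 39 had the same sign. Shared rises included MAMU-AG (log2 3.34 in the second pair), ZNF311 (2.40), LOC712157 (4.06), TTLL6 (2.10), SH3YL1 (2.02) and RAB25 (1.90). Shared falls included RERE (-8.13), LOC695105 (-3.50), MAMU-A (-3.16), MEST (-2.65), CEP68 (-2.07) and FGFBP3 (-1.15). The CRES-1 and RiPS2 arrays do not remove sex: in both pairs the induced line is the female one.

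A test of the difference between the comparisons was called for 123 members (0.728%), of which 30 were among the 126, 17 higher and 13 lower in RiPS3. The test contains the RiPS3 minus ORMES23 difference by which the 126 were chosen, so the 30 are a description. SOSTDC1 rose in RiPS3 and fell in RiPS2 (log2 -2.88), a difference of 4.79 between the comparisons (limma, adjusted p = 9.79e-05). SLC38A4 (-0.60 in the second pair), LGALS1 (-0.94), GSTK1 (0.45), PEX7 (-0.30), TRIM5 (0.56), LOC714951 (0.01), TADA2B (-0.01) and ST6GAL2 (0.30) also differed between the pairs by this test. The count of members with such a difference was 49 to 260 when single arrays of the 4 lines were left out: 200 without ORMES23 A, 61 without ORMES23 B, 49 without ORMES23 C, 260 without RiPS3 A, 52 without RiPS3 B and 57 without RiPS3 C. It was 60, 71 and 69 without CRES-1 A, B and C, and 223 and 51 without RiPS2 B and C. The count of 133 for RiPS2 against CRES-1 was 83 without RiPS2 C.

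**Figure D5:**
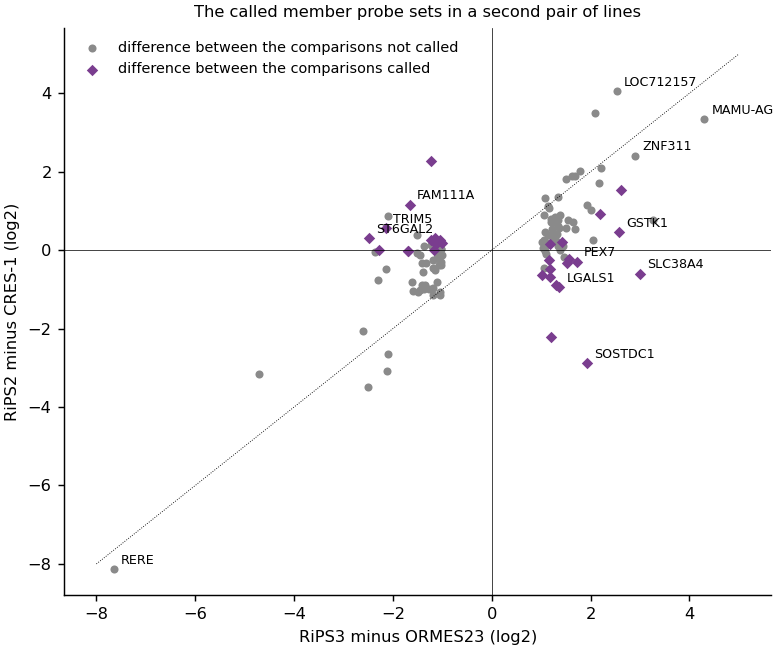
Difference between RiPS2 and CRES-1 (log2, y axis) against the difference between RiPS3 and ORMES23 (log2, x axis) for the 126 called probe sets; purple diamonds are the 30 for which the difference between the comparisons was called, and the dotted line marks equal differences. RERE and MAMU-AG lie near the line, SOSTDC1 far below it.

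The level of the called members in somatic cells was read from skin fibroblasts against CRES-1, which uses no RiPS3 or ORMES23 array. The contrast is still tied to the choice of members. CRES-1 lay nearer to RiPS3 for only 18 of the 126 called probe sets and 9 of the 56 falls. The fibroblasts are labelled female and CRES-1 male, so sex and somatic level cannot be told apart here. RERE (-8.16) and TBL1X (-1.26), which followed the labelled sex, were called lower in fibroblasts. The shares below are a description. Over all members 12.5% were called higher and 16.6% lower in fibroblasts. Of the 70 probe sets higher in RiPS3, 21 (30.0%) were higher and 16 (22.9%) lower in fibroblasts, with a median difference of -0.0032. Of the 56 lower in RiPS3, 9 (16.1%) were higher and 33 (58.9%) lower in fibroblasts, with a median of -1.47. Among the falls low in fibroblasts were MEST (4.78), FGFBP3 (3.50) and KLHL14 (3.56), while ZEB1 (8.34), PTPRB (7.93) and FAM111A (8.31) were high there. Among the rises, GSTK1 (9.68), LGALS1 (14.01) and XG (8.53) were high in fibroblasts, and SH3YL1 (3.35), SCIN (3.04) and GCA (3.98) were low. By the annotation's gene order, MAMU-A and MAMU-AG, ECRG4 and ST6GAL2, SOSTDC1 and SCIN, and PNPLA4 and TBL1X were within 3 steps of each other among the genes tested. With 114 genes called of 10437, some such pairs arise without any clustering. Whether these were more than that was not tested.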

How the data were processed

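RNA from 21 cultures was read on Affymetrix rhesus arrays after one-cycle labelling. The deposited values are log2 expression levels made by the authors with RMA, per the submitters' processing notes; neither the RMA version nor its probe map is given in the sources used here. RMA's quantile step gives the arrays a shared distribution of values, and it has a floor of about log2 2 to 3 where low genes have no order. Gene symbols came from the platform's annotation, with chromosomes from RefSeq (16682 members matched by gene ID and 193 by symbol); probes designed on older sequence can read another gene.

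The values were used as deposited. limma 3.58.1 in R 4.3.3 fitted a mean for each line on all 21 arrays (14 residual degrees of freedom). It used empirical Bayes and Benjamini-Hochberg adjustment over the 16886 members. The code was tested on simulated data with independent noise for each probe set, which does not cover arrays whose probe sets deviate together. No scan dates or batches are given in the sources used here, 0 pairs of arrays held identical values, and the number of arrays limits the precision.

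Genes named are the 15 largest rises and falls among called probe sets whose arrays do not overlap, the called members of each gene list (otherwise its member of smallest p), the reprogramming and core genes, Y-linked genes and called X-linked genes; others are said to have been chosen after their values were seen or stand as examples of a list. Of several probe sets, the leading genes are read from the one ranked and the list genes from the one with the smallest p; CYP26A1 is shown by its brighter one. The members, lists and alternatives were chosen with earlier results of these data known. Alternatives were other arrays in the fit, filters, scalings, tests and summaries of probe sets, and arrays left out. No sequences are printed.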

Additional observations from a re-analysis of the deposited data

Results flagged for a closer look

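Of the named genes, 14 differed more between RiPS3 and ORMES23 than between RiPS2 and CRES-1, or the other way, by the test of the difference between these comparisons in limma (adjusted p under 0.05 and log2 1 or more). Called genes were named for their RiPS3 minus ORMES23 difference, which is part of this test, so the list is a description. The differences between the comparisons were 4.79 for SOSTDC1, 3.59 for SLC38A4, 2.31 for LGALS1, 2.12 for GSTK1, 2.02 for PEX7, 1.78 for TCEAL2 and 1.26 for XG. They were -2.82 for FAM111A, -2.78 for ST6GAL2, -2.70 for TRIM5, -2.29 for LOC714951, -1.68 for LOC707924, -1.67 for TADA2B and -1.44 for HSPH1. SOSTDC1 was high in RiPS3, CRES-1 and RiPS1 and low in RiPS2 and the fibroblasts, so lines of the same making stood on opposite sides. For HSPH1 neither comparison was called alone.

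Probe sets without a gene symbol are outside the members, and 127 of the 10450 that passed the level filter were called, 56 higher and 71 lower in RiPS3. The 6 largest differences among them were 7.75, -7.51, -7.00, -6.68, 6.55 and 6.10 on the log2 scale. The first of them read 8.74 to 11.75 on the 12 arrays labelled female and 3.62 to 4.16 on the 9 labelled male. The next read 4.49 to 7.01 on the female and 12.77 to 13.24 on the male arrays. The one at -6.68 did not follow sex, since RiPS2 read near the male lines. In all, 26 of the 10450 separated the labelled sexes without overlap (11 higher and 15 lower in the female lines), and which transcripts they read was not tested.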

How the results depend on the processing

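The count of 126 became 37 (19 higher, 18 lower) with the 6 arrays of the compared lines alone, 258 (127 and 131) with unnamed probe sets included, 305 (163 and 142) on the adjusted p alone, 16 (7 and 9) with a test against a fold of 1.5, and 382 (155 and 227) without both A arrays, chosen after seeing the data. Falls numbered 34 with the brightest probe set of each gene and 37 with the mean of its probe sets. Leaving out 1 array gave 52 to 270 calls, 25 to 124 rises and 20 to 146 falls. X-linked calls were 2, 3, 3, 12, 1 and 24 under the 6 arrays, the brightest probe set, the mean, the adjusted p alone, the test against 1.5 and without both A arrays, and 2 to 14 without 1 array. For RiPS2 against CRES-1 the 133 became 79 with only the arrays of the compared lines, 283 with unnamed probe sets, 73 and 65 with the brightest and the mean, 347 on the adjusted p alone, 24 against 1.5 and 83 to 139 without 1 array. The 123 differences between comparisons became 31 with only the arrays of the lines compared, 244 with unnamed probe sets, 13 against 1.5 and 49 to 260 without 1 array. Counts under the other filters, scalings and the trended fit stayed within 1.5 times, as did the fibroblast counts. With the replicate block the count was 121 (68 and 53), of which 116 were among the 126; same-letter arrays of the lines deviated together at r = -0.26, -0.27 and 0.20, so the letters do not pair them. Signs turned for POU5F1 (-0.067 without both A arrays, -0.058 to 0.34 without 1 array), MYC (-0.38; -0.18 to 0.23), LOC709587 (0.43; -0.18 to 0.27) and DNMT3B (-0.10 to 0.012 without 1 array), none called. With the brightest probe set they turned for FGFBP3 (0.34), TBL1X (0.25), HMCN1 (0.30), LOC714951 (0.10), CEP68 (0.036), MAMU-A (2.61) and RERE (0.021). Of 39 named calls, 23 were lost with the 6 arrays alone, 26 against a fold of 1.5, 13 with the brightest probe set and 7 with the mean; 5 were made under every alternative run, and 14 of the 126 were made under every setting that keeps probe sets apart. Near log2 5 the signal over background limits what a difference shows.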

Other observations

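RDH10 and CYP26A1, chosen after their values were seen, were called in opposite directions. RDH10, which oxidises retinol on the way to retinoic acid, rose on 3 of its 4 probe sets, the first reading 6.60, 5.97 and 5.75 in RiPS3 and 4.32, 4.89 and 4.60 in ORMES23 (limma, adjusted p = 0.0232). The fourth differed by 0.09. CYP26A1, which degrades retinoic acid, fell on both probe sets, the dimmer by 1.19 on the log2 scale (adjusted p = 0.0344) and the brighter reading 9.93, 9.58 and 9.02 against 10.09, 10.86 and 10.85 (log2 -1.09; adjusted p = 0.0488), with RiPS3 A close to ORMES23 A. In RiPS2 against CRES-1 that RDH10 probe set had a difference of 1.82 and was called, while that of CYP26A1 had -0.13 and was not.

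ROR1, EPHA4 and ELOVL6 were also chosen after their values were seen. ROR1, a WNT5A receptor, read 7.14, 6.88 and 6.82 in RiPS3 and 8.38, 8.24 and 8.45 in ORMES23 (log2 -1.41; limma, adjusted p = 0.000775), and ORMES23 lay above every other pluripotent line. EPHA4, an ephrin receptor, read 5.02, 5.39 and 4.96 against 7.55, 6.18 and 6.20 (log2 -1.52; adjusted p = 0.0251), with -0.75 on its other probe set (adjusted p = 0.0987). ELOVL6, a fatty acid elongase, fell on 2 of its 4 probe sets, by 1.03 and 1.01 on the log2 scale; the others differed by -0.73 and -0.85 without a call.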
